A study of Mus musculus with 7 samples.

Results

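The collagens of types I, III, V and VI, the proteoglycans decorin and lumican, and the collagen-binding glycoprotein SPARC were followed through the cell classes of 7 mouse mammary tumors. The set holds 10 genes (Col1a1, Col1a2, Col3a1, Col5a1, Col5a2, Col6a1, Col6a2, Dcn, Lum and Sparc) of the 33710 symbols in the 7 count matrices. They were grouped by what they encode, and were chosen with earlier results of these data known. Other genes of these kinds, such as Bgn and Col11a1, are not in the set. Each tumor came from a different mouse with the MMTV-PyMT transgene and HK2 f/f alleles, with the genotype given as Wild type, and was taken 3 months after it could be felt. In these mice the polyoma middle T antigen is driven by the mouse mammary tumor virus promoter, so that tumors arise in the mammary epithelium. By the methods of the study, these controls were also given tamoxifen, and tumors were digested with collagenase and filtered before Drop-seq, so the cells described are those that came through this step. Age was not given in the labels. The 4 libraries with CB in the title are called replicates 1, 2, 3 and 4, and the 3 with WT in the title replicates 5, 7 and 8. What CB and WT stand for was not given in the sources used here. Tumors of HK2-deleted mice were not analysed here.

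Fibrillar collagens are built from procollagen chains that wind into a triple helix in the endoplasmic reticulum, are trimmed after secretion and then assemble into fibrils. Type I collagen, the bulk of connective tissue, is made from the products of Col1a1 and Col1a2. Type III collagen (Col3a1) assembles with it in soft tissue, and type V collagen (Col5a1, Col5a2) starts fibrils and limits their width. Type VI collagen (Col6a1, Col6a2, with Col6a3 as a further chain) is not fibrillar and forms beaded filaments close to cells. Decorin (Dcn) and lumican (Lum) are small leucine-rich proteoglycans that coat fibrils and govern their spacing. SPARC is not a proteoglycan but a secreted calcium-binding glycoprotein that binds collagen. In mammary tumors these products make up much of the stroma, and fibroblasts are their best known source.

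Drop-seq captures messenger RNA at its poly(A) tail and counts each captured molecule once by a unique molecular identifier (UMI), so a count does not scale with transcript length. Differences between genes in capture and alignment were not tested, so orders and ratios of genes hold for counted molecules only. Levels are given as CPM, the UMIs of a gene scaled to a common total (counts per 1e6 UMIs) over the cells of 1 class in 1 mouse. Of 37000 barcodes, 15047 had 200 to 6000 genes and were kept as cells, with 1133 to 4780 cells and 962677 to 4471473 UMIs per mouse. Classes were set by marker genes that are not members, and 647 cells passed as fibroblasts on at least 2 UMIs of Pdgfra, Col6a3 and Mgp with at most 1 of Epcam, Krt8 and Krt18. Col6a3 encodes a chain of the same collagen as the members Col6a1 and Col6a2, and Mgp a matrix protein. The gate is thus not independent of the set. There were 3009 tumor cells, 1456 hormone-sensing cells, 90 endothelial cells, 39 myoepithelial cells, 1894 macrophages and 1708 T/NK cells, and 6149 cells met no rule.

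The classes were checked against other markers. The 9 fibroblast markers kept out of the gate summed to 6366 to 15691 CPM in fibroblasts and to 38.2 to 379 CPM in tumor cells. In fibroblasts the summed markers of other types were lower, at 7.19 to 208 CPM for 7 endothelial genes, 0 to 880 CPM for 8 pericyte genes with Notch3 at 0, and 0 to 4.48 CPM for 4 adipocyte genes with Adipoq, Plin1 and Cidec at 0. The 8 myoepithelial genes summed to 65.8 to 599 CPM with Krt14 at 0, the 4 Schwann cell genes to 65.8 to 574 CPM, the 6 macrophage genes to 0 to 334 CPM and the 9 T/NK genes to 0 to 129 CPM. Of the myoepithelial genes 2 were tested against tumor cells, and both are named after their values had been seen. Acta2, a smooth muscle actin, was higher in fibroblasts (log2 4.17), at 226 ± 133 CPM against 15.0 ± 6.32 CPM in tumor cells (SD, n = 7). The basal keratin Krt14, at 0 in fibroblasts, was tested through tumor cells alone and could only be lower. These 2 results are descriptions and no check of the class. Only replicates 1 and 5 had the 10 cells needed for a myoepithelial sum, and only replicates 4, 5 and 8 for an endothelial sum. Of the 14231 cell barcodes without an ambiguous base, 5 occurred in more than 1 library. Replicate 8 stood apart: fibroblasts were 19.8% of its cells, against 1.41% to 4.69% in the other mice, and its barcodes under 200 genes, whose make-up of free RNA and of small or broken cells was not tested, had the highest level of the 10 genes among the 7 mice.

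The members lie on 5 chromosomes of mm10 (GENCODE vM21). Col3a1 (chr1:45311538-45349706) and Col5a2 (chr1:45374321-45503282) are neighbouring coding genes on opposite strands with 24614 bases between them. Col6a2 (chr10:76595762-76623630) and Col6a1 (chr10:76708792-76726168) are neighbours 85161 bases apart, and Dcn (chr10:97479609-97518143) and Lum (chr10:97565128-97572703) are neighbours 46984 bases apart, each pair on 1 strand. Col5a1 (chr2:27886425-28039514), Col1a2 (chr6:4504814-4541544), Sparc (chr11:55394500-55423183) and Col1a1 (chr11:94936224-94953042) have no member next to them. Exons of Col3a1 overlap Gm47302 on the same strand, and exons of Col5a1 overlap 2810430I11Rik and Gm13372 on the other strand, so counts in these overlaps may be shared.

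Promoter sequences of RefSeq (GRCm38.p6) were found for 6 members: Col1a2, Col3a1, Col5a1, Col6a1, Col6a2 and Sparc. Printed here are those of the collagen genes with the highest levels, Col1a2 and Col3a1, and of Sparc, because these 3 lead in fibroblasts while Sparc alone was also high in endothelial and myoepithelial cells. They run from 250 bases before the annotated start to 30 bases after it, as chr6:4505368-4505647 on the plus strand for Col1a2, chr1:45311288-45311567 on the plus strand for Col3a1 and chr11:55420051-55420330 on the minus strand for Sparc. Capitals mark 3 short motifs, searched on both strands: the CCAAT box (CCAAT or ATTGG), the TATA box (TATAAA or TTTATA) and an E-box (CAGGTG or CACCTG).
Col1a2: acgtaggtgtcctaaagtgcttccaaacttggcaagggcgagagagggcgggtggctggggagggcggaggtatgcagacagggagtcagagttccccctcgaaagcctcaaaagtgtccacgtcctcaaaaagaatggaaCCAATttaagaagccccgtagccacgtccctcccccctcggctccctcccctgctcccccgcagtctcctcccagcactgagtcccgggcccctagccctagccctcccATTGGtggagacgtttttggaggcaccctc
Col3a1: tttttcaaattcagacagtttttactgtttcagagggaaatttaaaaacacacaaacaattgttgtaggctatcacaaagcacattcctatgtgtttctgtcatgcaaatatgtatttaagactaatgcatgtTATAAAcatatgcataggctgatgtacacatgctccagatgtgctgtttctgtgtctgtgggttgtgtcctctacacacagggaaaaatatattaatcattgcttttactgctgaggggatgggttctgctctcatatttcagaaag
Sparc: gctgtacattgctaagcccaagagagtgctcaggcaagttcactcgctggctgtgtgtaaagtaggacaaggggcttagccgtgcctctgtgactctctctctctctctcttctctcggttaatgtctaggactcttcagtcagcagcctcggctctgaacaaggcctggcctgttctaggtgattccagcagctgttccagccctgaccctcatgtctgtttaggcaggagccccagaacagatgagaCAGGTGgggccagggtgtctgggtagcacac
Col1a2 held 2 CCAAT boxes, Col3a1 held 1 TATA box and Sparc held 1 E-box, and no match was found in the other 3 promoters. Among 27018 promoters of the same length, 36.6% held the CCAAT box, 13.7% the TATA box and 18.9% the E-box. The GC content was 36.1% for Col3a1, 55.4% for Sparc and 61.1% for Col1a2, against a median of 52.5% over all promoters. The Col1a2 and Sparc windows are drawn around RefSeq starts that lie inside the GENCODE genes.

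In fibroblasts the 10 genes together made up 69150 ± 8852 CPM (SD, n = 7 mice), from 55461 CPM in replicate 4 to 79336 CPM in the highest mouse. Sparc stood at 18887 ± 4834 CPM (SD, n = 7), with a lowest value of 13021, a median of 18316 and a highest of 26248. The type I chain Col1a2 followed at 15739 ± 2139 CPM (lowest 12788, median 15203, highest 18814) and type III Col3a1 at 14191 ± 2874 CPM (lowest 8627, median 14309, highest 17190). These 3 genes held most of the set's molecules in fibroblasts. Dcn stood at 8666 ± 1788 CPM (lowest 7000, median 7595, highest 11199) and Col1a1 at 6049 ± 2103 CPM (lowest 3717, median 5328, highest 9012). The remaining 5 genes were lower: Lum at 1818 ± 472 CPM, Col5a2 at 1304 ± 294 CPM, Col6a1 at 1006 ± 77.3 CPM, Col6a2 at 966 ± 156 CPM and Col5a1 at 525 ± 81.8 CPM (SD, n = 7 each).

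Some neighbours in this order did not differ beyond their spread. Sparc was above Col1a2 in 5 of 7 mice, by 3148 ± 3468 CPM (SD), Col1a2 above Col3a1 in 5 of 7, by 1548 ± 2138 CPM, and Col6a1 above Col6a2 in 5 of 7, by 40.2 ± 109 CPM. Dcn was above Col1a1 in 6 of 7 mice, by 2617 ± 2979 CPM, and Lum above Col5a2 in 6 of 7, by 514 ± 525 CPM, also within their spread. Col5a2 was above Col6a1 in 6 of 7 mice, by 298 ± 285 CPM, about as much as its SD. Col3a1 was above Dcn, Col1a1 above Lum and Col6a2 above Col5a1 in 7 of 7 mice, and the ranges of the last 2 pairs did not overlap.

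**Figure D1:**
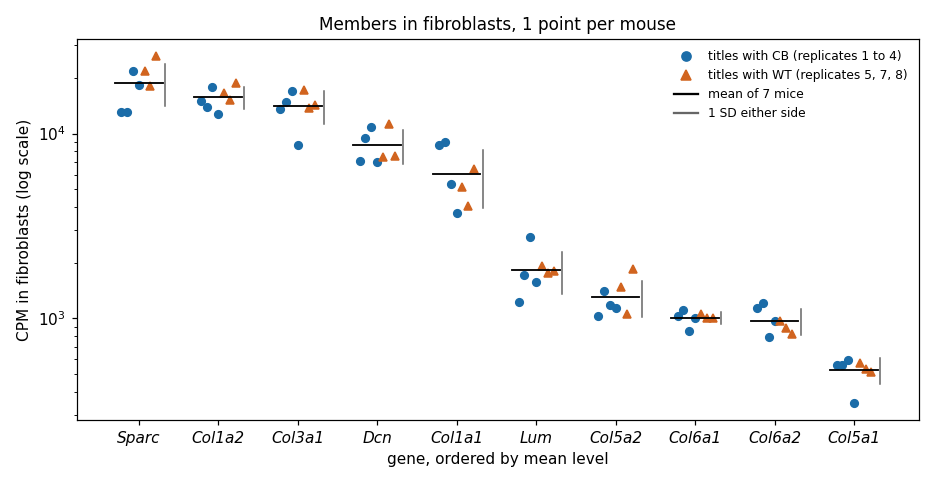
Levels of the 10 genes in fibroblasts (CPM, log scale), 1 point per mouse, with the mean of 7 mice and 1 SD either side. Sparc, Col1a2 and Col3a1 overlap at the top, Lum and the 4 genes after it lie lowest, and replicate 4 is the low point of Col3a1 and Col5a1.

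The genes differed in how far the mice lay apart. Col1a1 had a coefficient of variation of 34.8%, where counting error alone gives 5.69%, and replicates 1 and 2 (8674 and 9012 CPM) were above the other 5 (3717 to 6395 CPM). For Col6a1 the coefficient of 7.68% was under the 13.9% of counting error, and for Col5a1 15.6% stood against 19.3%. By this measure, a spread between mice was not detectable for these low genes beyond counting error at this depth. Replicate 4 still stood low for Col5a1, at 349 CPM with the next mouse at 511 CPM. The ratio of the type I chains, Col1a2 UMIs per Col1a1 UMI, went from 1.54 in replicate 2 and 1.74 in replicate 1 to 3.76 in replicate 7, with a median of 3.19. The type VI chains were nearly even, at 0.817 to 1.11 Col6a2 UMIs per Col6a1 UMI. There were 1.83 to 3.61 Col5a2 UMIs per Col5a1 UMI and 3.90 to 6.33 Dcn UMIs per Lum UMI.

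Nearly every fibroblast held RNA of the set. With 842 UMIs in the median cell, 638 of 647 cells (98.6%) had a UMI of at least 1 of the 10 genes, and the median cell had UMIs of 7 of them. Sparc was seen in 97.4% of fibroblasts, Col1a2 in 88.6%, Col3a1 in 85.3% and Dcn in 85.0%, down to 32.9% for Col5a1. With each cell thinned to 300 UMIs, which left out 37 cells, the shares were 94.6% for Sparc, 84.4% for Col1a2 and 11.1% for Col5a1. In T/NK cells, which should lack these genes, the unthinned shares, with 447.5 UMIs in the median cell, were 3.75% for Sparc, 2.05% for Col1a2 and 0.117% for Col5a1.

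Levels followed the gate. Just inside it, the 107 cells with 2 gate UMIs held 52626 CPM of the 10 genes, and just outside, the 348 cells with 1 gate UMI held 32019 CPM, and 68.4% of the latter had a UMI of the set. The 324 fibroblasts that passed on Mgp alone (matrix Gla protein, an inhibitor of calcification) held 48801 CPM when pooled, against 80240 CPM in the 323 with Pdgfra or Col6a3. The gap was wide for Col1a1 (2883 against 6941 pooled CPM) and narrower for Dcn (7105 against 8916 pooled CPM) and Sparc (17664 against 22060 pooled CPM). Col6a1 stood at 668 against 1222 and Col6a2 at 542 against 1165 pooled CPM. Since the gate counts Col6a3, a chain of the same collagen, these type VI levels are in part selected for. These are descriptions without a test.

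Fibroblasts were first set against tumor cells, to ask which members are shared by PYMT-positive cells with luminal markers. The tumor rule asks for at least 2 UMIs of Epcam, Krt8 and Krt18. The fibroblast rule allows at most 1 and sets no limit on PYMT. A PYMT-positive cell with few luminal UMIs could therefore count as a fibroblast but not as a tumor cell. The paper describes a PyMT-expressing cluster with the highest mesenchymal markers, Sparc among them. PYMT was not tested in fibroblasts, so the results below do not cover such tumor cells. Every one of the 10 genes was higher in fibroblasts in 7 of 7 mice, which was not counted over all genes. All 10 passed edgeR's quasi-likelihood test (mouse as a block, Benjamini-Hochberg adjusted p under 0.05). Among all 3509 genes tested, 22.5% were higher in fibroblasts. Members near 0 in tumor cells reach the test through their fibroblast counts and could then only be higher. Examples are Col5a1 with 15 UMIs, Col6a1 with 26 and Col5a2 with 51 in tumor cells over all mice. The count of 10, the median below and the p-values of such members are therefore descriptions. The median log2 fold change of the 10 members was 7.81, beside -0.12 over all genes tested. The values ran from 7.18 for Col5a2 (standard error, SE, 0.49, edgeR adjusted p = 7.67e-10) to 8.47 for Col3a1 (SE 0.69, edgeR adjusted p = 9.47e-09), which had 14191 ± 2874 CPM in fibroblasts and 147 ± 293 CPM in tumor cells (SD, n = 7). Their order changed with the fit: without the mouse block Col3a1 was at 6.89 and Col6a1 was highest at 7.75, and with DESeq2 Dcn was lowest at 7.73. The 10 values ran from 8.36 to 10.60 in the CB mice alone and from 5.90 to 6.73 in the WT mice alone. The tumor values rested on few molecules in most mice: Col1a1 was at 7.06 CPM in the median mouse and at 309 CPM in replicate 8, and Col5a1 was at 0 in the median mouse.

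**Figure D2:**
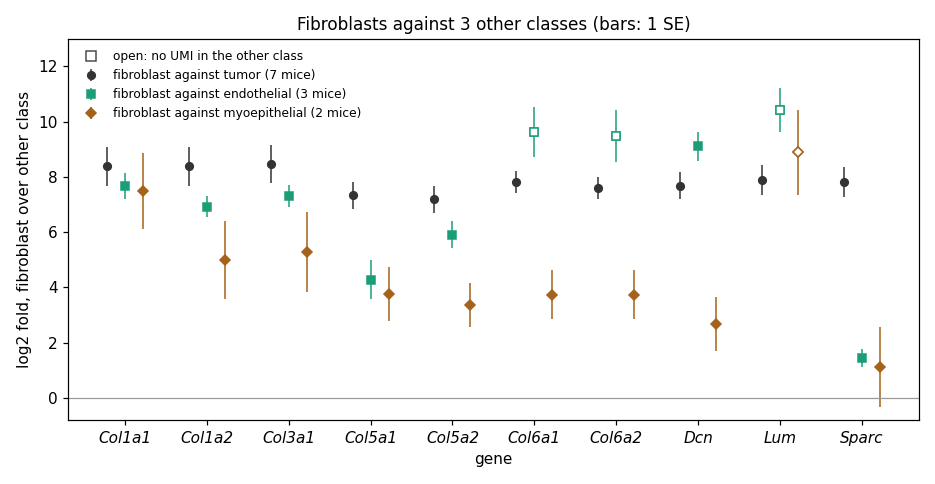
Log2 fold change of each gene, fibroblasts over tumor cells (7 mice), endothelial cells (3 mice) and myoepithelial cells (2 mice), with bars of 1 standard error. Open symbols mark genes with no UMI in the other class, whose fitted value depends on the prior count, and Sparc is at 1.45 and 1.11 in the last 2 comparisons and at 7.81 against tumor cells.

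Endothelial cells, the lining of vessels, held Sparc and little else of the set. Sparc was at 11737 CPM in replicate 4, 13909 CPM in replicate 5 and 5949 CPM in replicate 8, where fibroblasts of the same mice had 18316, 21723 and 26248 CPM. In these 3 mice the classes did not overlap, and the log2 fold change was 1.45 (SE 0.32, edgeR adjusted p = 0.00137). Fibroblasts of replicates 1 and 2, at 13021 and 13033 CPM, were below the endothelial value of replicate 5. In replicate 1 the 3 endothelial cells, too few for a sum, were at 13655 CPM, above its fibroblasts. Without replicate 4 the call was lost, at 1.78 with an adjusted p of 0.0736 by edgeR over 2 mice. With this class rule, Lum, Col6a1 and Col6a2 had no UMI in 77944 endothelial UMIs, which puts their pooled levels in fibroblasts at least 44.6-fold, 26.3-fold and 24.1-fold higher, with 3 UMIs over the group as the floor. Dcn had 1 UMI there, or 12.8 CPM pooled with a 95% exact Poisson interval of 0.325 to 71.5 for counting error only.

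Of 1045 genes tested, 23.3% were higher in fibroblasts than in endothelial cells, and all 10 members were among them. A gene at or near 0 in endothelial cells reaches the test through its fibroblast counts, and could then only be higher. The log2 fold changes of the fibrillar chains Col1a1, Col1a2, Col3a1, Col5a1 and Col5a2 were 7.66, 6.92, 7.30, 4.27 and 5.91. These sizes depended on the gate: with Mgp left out of the fibroblast rule they were 5.19, 5.31, 5.35, 3.48 and 4.06, with Dcn at 4.74 instead of 9.11 and Lum, Col6a1 and Col6a2 at 4.32, 4.53 and 4.08, and all 10 members were still called. Pericyte markers, genes of the mural cells that wrap small vessels, summed to 106, 3217 and 813 CPM in the endothelial cells of replicates 4, 5 and 8, with 7 of 8 detected and Notch3 at 0. Their part in the endothelial Sparc level was not tested. The comparisons of fibroblasts with the 3 other classes share the fibroblast sums.

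Against tumor cells, endothelial Sparc was higher in 3 of 3 mice, at 10532 ± 4114 CPM (SD, n = 3) over 375 ± 430 CPM, a log2 fold change of 5.35 (SE 0.62, edgeR adjusted p = 4.91e-06). Of the 2139 genes tested in this comparison 13.4% were higher in endothelial cells. Col1a2 and Col3a1, the only other members tested, did not pass, with values of -0.94 and -1.52 (adjusted p = 0.301 and 0.18 by edgeR). Their direction turned without replicate 8, to 0.18 and 0.47.

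Myoepithelial cells, the contractile basal layer of the mammary duct, also held Sparc. Replicate 1 had 12067 CPM in 15 cells and replicate 5 had 6677 CPM in 12 cells, against 13021 and 21723 CPM in fibroblasts of the same mice. The difference of 1.11 on the log2 scale (SE 1.44, edgeR adjusted p = 0.659) did not pass. Dcn was present too, with 2712 CPM in replicate 1 and 371 CPM in replicate 5, and 58 UMIs over all 39 cells. Its value of 2.68 (SE 0.99, edgeR adjusted p = 0.0294) was past the threshold in the main design but lost the call under 6 of 10 alternatives, with 2.32 to 3.00 on the log2 scale and an adjusted p of 0.0695 (DESeq2) to 0.148 (edgeR with DESeq2 size factors), and 0.126 by edgeR without the mouse block. In all, 9 of 10 members were higher in fibroblasts, where 17.4% of 650 genes were. Lum with 0 UMIs, Col1a1 and Col5a1 with 1 each, Col6a1 with 2 and Col6a2 with 3 in myoepithelial cells were tested through their fibroblast counts, which leaves 1 direction. With DESeq2 4 members were called, where it called 21 of the 650 genes. Leaving out fibroblasts that met 2 class rules left 6, with Col1a2 and Col3a1 lost (adjusted p = 0.0538 and 0.0676 by edgeR). Their log2 values did not shrink, at 5.09 and 5.42 beside 4.98 and 5.29 in the main design. With 2 mice the spread between animals is poorly known. Lum had no UMI in 34498 myoepithelial UMIs, which puts fibroblasts at least 19.7-fold higher.

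**Figure D3:**
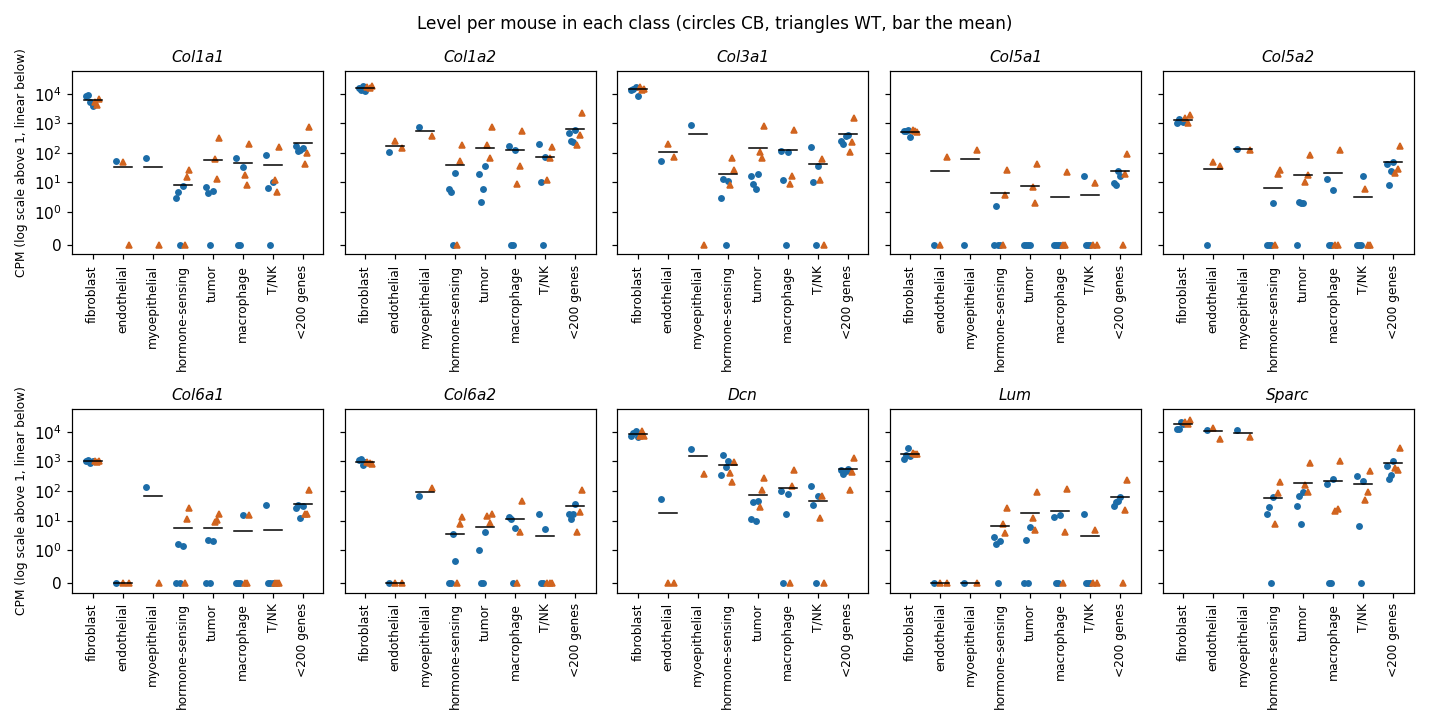
CPM of each gene per mouse in 7 classes and in barcodes under 200 genes (log scale above 1 CPM, linear below), for sums of at least 10 cells. The mean is highest in fibroblasts in every panel, endothelial and myoepithelial points come near them for Sparc, and hormone-sensing points are above the tumor and T/NK points of the same mouse in 7 of 7 mice for Dcn.

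The low values elsewhere were set against barcodes under 200 genes. These held 1079 to 9509 CPM of the 10 genes (median 1773). Tumor cells held 30.6 to 3238 CPM (median 213), macrophages 16.9 to 3219 CPM (median 239) and T/NK cells 0 to 990 CPM (median 308), and each of these 3 classes was below the barcodes under 200 genes in 7 of 7 mice. The highest value was that of replicate 8 in tumor cells, macrophages and these barcodes, and that of replicate 1 in T/NK cells. Pooled Sparc shares of the 10-gene UMIs were 28.9% in tumor cells, 32.9% in macrophages and 37.8% in T/NK cells, against 31.2% in barcodes under 200 genes (95% exact binomial interval 30.1 to 32.2, for counting error only).

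Tumor cells and T/NK cells were compared to see whether PYMT-positive cells with luminal markers held more of the set than a class that should lack these genes. Col1a2, Dcn and Sparc had enough counts for the test, and 0 of the 3 passed edgeR, where 55% of 3822 genes passed in either direction. Of the 3, 0 had an unadjusted p under 0.05 and DESeq2 called 0, and the log2 values were 0.10, -0.08 and -0.17. The directions of Dcn and Sparc turned with DESeq2's size factors, which moved the median of all genes from 0.05 to 0.37 and the share of calls higher in tumor cells from 54.9% to 71.1%. Within each title series the values differed. In the 4 CB mice, with 5414 genes tested, Dcn and Sparc were lower in tumor cells (-1.01 and -1.12, adjusted p = 0.0468 and 0.00381 by edgeR). In the 3 WT mice Col1a1, Col1a2 and Col3a1 were higher in tumor cells (1.93, 1.57 and 1.44, adjusted p = 0.0191, 0.00119 and 0.00478 by edgeR), where 1346 of 3374 genes passed in either direction. Dcn and Sparc were at 1.05 and 0.84 (adjusted p = 0.0706 and 0.0691 by edgeR). T/NK cells of replicates 5, 7 and 8 held 2, 1 and 1 UMIs of Col1a1, 2, 14 and 1 of Col1a2 and 2, 13 and 0 of Col3a1. In these mice the 3 genes were tested mainly through their tumor counts, which leaves little room for the other direction. Replicate 8 is a WT mouse and had only 11 T/NK cells.

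**Figure D4:**
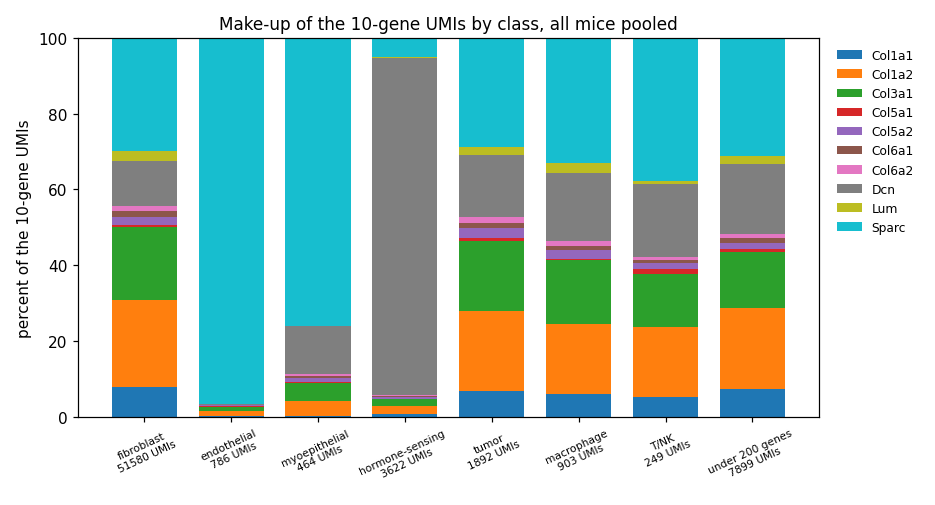
Share of each gene among the 10-gene UMIs of a class (percent, all mice pooled). Sparc takes 28.9% to 37.8% in tumor cells, macrophages, T/NK cells and barcodes under 200 genes, 96.7% in endothelial and 76.1% in myoepithelial cells, and Dcn takes 89.0% in hormone-sensing cells.

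The share of Sparc among the 10-gene UMIs was compared within mice that had at least 20 such UMIs in both classes, whatever their number of cells. In 6 mice it was 27.1% ± 5.83 in fibroblasts and 97.7% ± 2.09 in endothelial cells (SD), lower in fibroblasts in 6 of 6 (two-sided exact sign-flip permutation p = 0.0312, the smallest 6 mice allow, 0.156 adjusted over 5 comparisons). In 4 mice it was 29.1% ± 5.75 in fibroblasts and 79.1% ± 5.97 in myoepithelial cells (exact p = 0.125, the smallest 4 mice allow, 0.312 adjusted). Neither passed after adjustment, although the ranges were far apart: 19.7% to 33.1% in fibroblasts, 94.7% to 100% in endothelial cells and 71.8% to 85.7% in myoepithelial cells. The differences from tumor cells (-7.61 ± 14.7 percentage points, 6 mice), T/NK cells (-5.95 ± 11.8, 4 mice) and barcodes under 200 genes (-4.67 ± 11.2, 7 mice) were smaller than their SD. Their exact adjusted p was 0.375 each, which could not have passed either and so does not show likeness.

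Hormone-sensing cells, named for the luminal cells with receptors for estrogen, progesterone and prolactin, held Dcn above tumor cells. Of the 1456 cells that met this rule, 1300 had a UMI of Prlr, 749 of Cited1, 423 of Areg, 188 of Pgr and 126 of Esr1. Prlr was thus the marker seen in most of them, and tumor cells held it at 62.9 CPM. Dcn was at 340, 1720, 669, 1022, 415, 204 and 952 CPM in replicates 1, 2, 3, 4, 5, 7 and 8, and at 11.1, 42.0, 9.56, 45.9, 28.1, 111 and 267 CPM in tumor cells of the same mice. It was higher than in tumor cells and than in T/NK cells in 7 of 7 mice, and higher than in barcodes under 200 genes in 4 of 7 (replicates 2, 3, 4 and 5). The fibroblast level was 9.32-fold higher when pooled. Set against tumor cells, a comparison added after the levels had been seen, Dcn had a log2 fold change of 3.56 (SE 0.47, edgeR adjusted p = 0.000109), where 8.87% of 6655 genes were higher in hormone-sensing cells. It was 4.98 in the 4 CB mice, 1.83 in the 3 WT mice and 3.92 without replicate 8, each past the threshold. Its neighbour Lum had 11 UMIs among 3649607, where Dcn had 3222.

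The other members did not follow. The 9 genes other than Dcn summed to 3.47 to 561 CPM in hormone-sensing cells and were above tumor cells in 0 of 7 mice. Of the 2 others with enough counts, Sparc was lower than in tumor cells (-1.25, SE 0.30, edgeR adjusted p = 0.0078), as was Col1a2 (-1.55, SE 0.40, edgeR adjusted p = 0.0129), where 11.2% of genes were lower in hormone-sensing cells. Both calls were lost without the mouse block (-1.92 and -2.52, adjusted p = 0.204 and 0.192 by edgeR), and that of Col1a2 also with DESeq2 (-1.73, adjusted p = 0.128) and without replicate 8 (adjusted p = 0.0673 by edgeR). In the 3 WT mice Col1a1 and Col3a1 could also be tested and were lower (-2.24 and -1.76, adjusted p = 0.0277 and 0.0329 by edgeR), where 251 of 5964 genes were called in either direction. They reached this test mainly through the tumor counts of these mice, which leaves little room for the other direction. Col1a1 was at 129 ± 159 CPM in their tumor cells and 13.6 ± 13.1 CPM in their hormone-sensing cells (SD, n = 3).

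**Figure D5:**
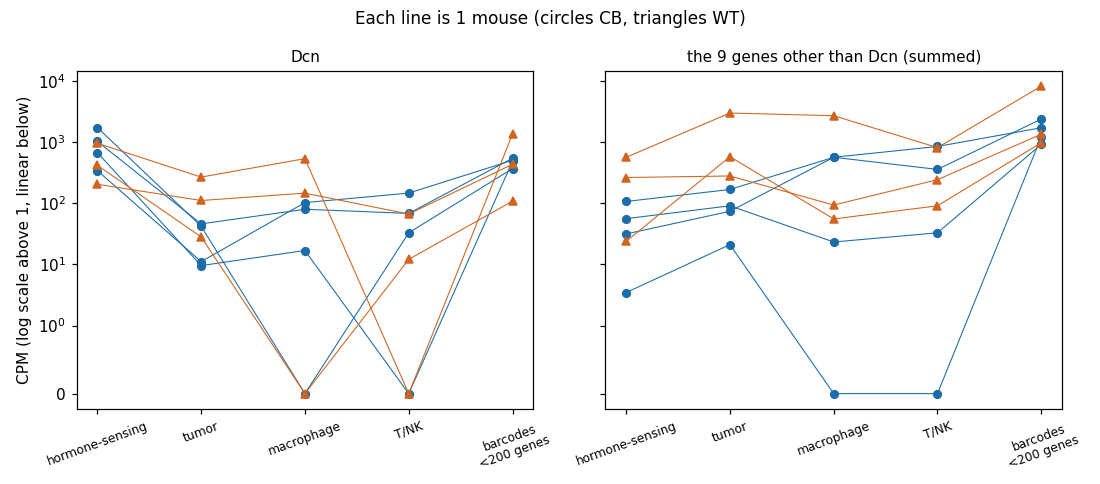
CPM of Dcn and of the 9 other genes summed in hormone-sensing cells, tumor cells, macrophages, T/NK cells and barcodes under 200 genes (log scale above 1 CPM, linear below), each line 1 mouse. Dcn drops from hormone-sensing to tumor cells in 7 of 7 mice, whereas the 9 other genes are higher in hormone-sensing cells in 0 of 7.

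Among the 10-gene UMIs, Dcn took 91.5%, 96.9%, 99.5%, 90.6%, 94.6%, 43.7% and 62.9% in hormone-sensing cells of replicates 1, 2, 3, 4, 5, 7 and 8. In a comparison also added after the levels had been seen, the mean of 82.8% ± 21.1 stood against 12.6% ± 2.46 in fibroblasts and 21.0% ± 7.13 in barcodes under 200 genes (SD, n = 7), higher in 7 of 7 mice in each case (two-sided exact sign-flip permutation p = 0.0156, the smallest 7 mice allow, 0.0234 adjusted over 3 comparisons). Against tumor cells it was higher in 6 of 6 mice (exact p = 0.0312, and 0.0312 adjusted), a call that is lost without any of the 6 (exact adjusted p = 0.0625, the smallest that 5 mice allow). Replicates 7 and 8 were the low ones. In them 23.4% and 57.9% of hormone-sensing cells had a UMI of the other 9 genes, against 0.847% to 14.3% in the other mice.

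Counted by cell, 345 of 1456 hormone-sensing cells (23.7%) had a Dcn UMI, as did 3.36% of tumor cells and 2.05% of T/NK cells, where the median cell held 1490.5, 1109 and 447.5 UMIs. After thinning to 300 UMIs, which left out 35 hormone-sensing and 277 T/NK cells, the shares were 14.3%, 1.33% and 1.05%. The molecules were bunched: 108 cells had 1 Dcn UMI, 38 had 2, 32 had 3 and 167 had 4 or more. Hormone-sensing cells without any UMI of the other 9 genes held 2649 Dcn UMIs, and with these cells alone the log2 fold change over tumor cells was 3.58 (adjusted p = 8.81e-06 by edgeR). The 9 fibroblast markers kept out of the gate summed to 71.5 to 235 CPM in hormone-sensing cells and 38.2 to 379 CPM in tumor cells, with 9 of 9 detected in both. The luminal markers Epcam, Krt8 and Krt18 summed to 7626 to 12391 CPM and 6323 to 9362 CPM. Both class rules require at least 2 UMIs of these genes, so high sums follow from the rules.

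Dcn was also read in hormone-sensing cells split by marker. Cells with a UMI of the progesterone receptor gene Pgr had 1744 CPM of Dcn when pooled and those without had 676 CPM. For the estrogen receptor gene Esr1 the pooled values were 1297 and 814 CPM, for the prolactin receptor gene Prlr 905 and 615 CPM, for the transcriptional regulator Cited1 1013 and 745 CPM and for the growth factor gene Areg 775 and 942 CPM. The means over mice overlapped within their SD, as for Pgr at 1253 ± 1034 CPM (5 mice) against 630 ± 460 CPM (7 mice) and for Prlr at 854 ± 549 CPM (7 mice) against 714 ± 881 CPM (5 mice), and Esr1 had enough positive cells in 3 mice. These splits were not tested, and the depth of their cells was not matched.

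Fibroblasts, 4.30% of the cells, held 61.4% ± 10.9 of the 10-gene UMIs found in cells (SD, n = 7), from 44.7% to 75.9%, and cells of no class held 27.0% ± 12.2. By gene the mean fibroblast share ran from 64.0% for Sparc to 75.2% for Col6a2 among 9 members. Dcn was below these at 40.7% ± 16.5, and hormone-sensing cells held 22.5% ± 21.6 of it, from 2.19% in replicate 8 to 59.2% in replicate 2. In replicates 2, 3 and 4 hormone-sensing cells held 59.2%, 31.6% and 40.0% of the Dcn UMIs, above the 22.5%, 26.8% and 36.4% of fibroblasts. With the gate at 1 UMI fibroblasts held 73.0% of the 10-gene UMIs, and with the gate at 3 UMIs 53.0%.

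Other genes of the matrix were read from lists in the comparison of fibroblasts with tumor cells. Many were near 0 in tumor cells and passed the filter on low counts through fibroblasts alone, which leaves them only 1 direction, so the counts of these lists are descriptions, beside the 22.5% of all genes tested that were higher in fibroblasts. Of 24 genes for collagen modification and processing, 19 were tested and 19 were higher in fibroblasts, with a median log2 fold change of 3.81 beside -0.12 over all genes. They include Serpinh1, a chaperone of procollagen, at 2213 ± 474 CPM in fibroblasts (log2 4.41, adjusted p = 5.26e-11 by edgeR), and Lox, which cross-links fibrils, at 941 ± 462 CPM against 5.65 ± 9.85 CPM in tumor cells. Pcolce, an enhancer of procollagen trimming, stood at 829 ± 196 CPM against 6.03 ± 5.15 CPM. Of 13 other collagens 9 were tested and 8 were higher, with a median of 6.52. Col8a1 was at 1232 ± 539 CPM, the basement membrane chain Col4a1 at 998 ± 314 CPM and Col14a1 at 906 ± 317 CPM, while Col11a1, a fibrillar chain best known from cartilage, did not pass (log2 0.78, adjusted p = 0.0686 by edgeR).

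Of 12 other matrix proteoglycans 7 were not tested and 5 were higher in fibroblasts, with biglycan (Bgn) at 3031 ± 660 CPM, osteoglycin (Ogn) at 518 ± 137 CPM and asporin (Aspn) at 462 ± 220 CPM in fibroblasts, against 33.8 ± 51.4, 9.06 ± 9.36 and 3.26 ± 5.86 CPM in tumor cells. Of 17 matricellular and microfibril genes 16 were tested, 15 were higher and Cyr61 was lower (-0.82, adjusted p = 0.00217 by edgeR), where 22.9% of all genes tested were lower in fibroblasts. In this list Mfap5 and Postn (periostin) stood at 3110 ± 1107 and 3092 ± 685 CPM, and fibronectin (Fn1) at 1788 ± 456 CPM. For collagen breakdown, 7 of 12 were tested and 7 were higher, among them the gelatinase Mmp2 at 1436 ± 417 CPM, the inhibitor Timp3 at 1286 ± 400 CPM and the membrane-bound Mmp14 at 1155 ± 365 CPM. Of 9 collagen receptors 2 were tested. The integrin chain Itgb1 was higher in fibroblasts (745 ± 182 against 350 ± 83.6 CPM, log2 1.25, adjusted p = 1.74e-05 by edgeR). The uptake receptor Mrc2, at 175 ± 64.8 CPM in fibroblasts and 0.316 ± 0.835 CPM in tumor cells, passed the filter through fibroblasts alone. Ddr2, a tyrosine kinase that binds collagen, was at 141 ± 83.2 CPM in fibroblasts and was not tested. All 8 tested of 9 fibroblast markers outside the gate were higher, with Gsn at 2894 ± 1846, Serping1 at 1870 ± 721 and Dpt at 1706 ± 536 CPM.

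Against endothelial cells the lists held genes that were lower in fibroblasts, and here too genes at 0 in endothelial cells, such as Col8a1 and Col14a1, were tested through fibroblasts alone. Of 8 other collagens tested, 5 were higher in fibroblasts and 2 were lower, where 15% of all genes tested were lower. Col4a1, at 998 ± 314 CPM in fibroblasts (SD, n = 7) and 1800 ± 362 CPM in endothelial cells (SD, n = 3), did not pass (-0.66, adjusted p = 0.0524 by edgeR). Serpinh1 was higher in fibroblasts (log2 0.89, adjusted p = 0.00769 by edgeR), while Lox and Pcolce were at 12.3 ± 21.3 and 45.3 ± 50.0 CPM in endothelial cells (SD, n = 3). All 8 modification genes, all 6 other proteoglycans and all 7 breakdown genes tested were higher in fibroblasts, as were 11 of 12 matricellular and microfibril genes, beside 23.3% of all genes tested. Itgb1, the only receptor tested, did not pass (-0.11, adjusted p = 0.772 by edgeR).

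Genes most like Col1a1 and Sparc were sought over 40 sums of class and mouse, by Pearson's r of log2(CPM + 10) among 6935 genes. These are descriptions, since sums share libraries and classes. For Col1a1 the 5 closest other genes were Dpt (0.956), Fstl1 (0.945), Thbs2 (0.943), Loxl1 (0.941) and Has1 (0.941), and among members Lum (0.950), Col3a1 (0.947) and Col1a2 (0.944) were near, with Sparc (0.781) and Dcn (0.729) farthest. For Sparc they were Bgn (0.924), Cxcl12 (0.921), Nid1 (0.915), Col4a1 (0.914) and Lamc1 (0.899), of which Nid1, Col4a1 and Lamc1 encode basement membrane proteins. Dcn was the member least like Sparc (0.575).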

How the data were processed

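The deposited UMI count matrices (genes by barcodes, 1 per tumor) were made by the authors from Drop-seq reads aligned, by their methods, to mm10 with the PyMT sequence added. The submitters' processing notes name STAR and FastQC, and the human builds GRCh37.p13 and hg19, while the symbols in the matrices are those of mouse. Mitochondrial genes were present in the matrices of replicates 7 and 8 only and were left out. The limits on genes per cell were 200 and 6000, and doublets were not called. Cells that met the fibroblast rule were called fibroblasts, including 30 that met another rule, and cells that met 2 or more other rules were left out. The other rules, with at most 1 UMI of Epcam, Krt8 and Krt18 unless stated, were at least 2 UMIs of endothelial (Pecam1, Cdh5, Kdr, Emcn, Flt1, Cldn5, Egfl7), macrophage (C1qa, C1qb, C1qc, Csf1r, Adgre1, Cd68) or T/NK genes (Cd3d, Cd3e, Cd3g, Trac, Trbc1, Trbc2, Nkg7, Klrb1c, Ncr1). Hormone-sensing cells had at least 2 UMIs of Cited1, Prlr, Areg, Esr1 and Pgr and at least 2 of Epcam, Krt8 and Krt18. Tumor cells had at least 2 of the latter, at least 1 of PYMT and at most 1 of the hormone-sensing genes. Myoepithelial cells had at least 1 UMI of Krt5, Krt14 and Krt17, at least 1 of Acta2, Myh11, Mylk, Cnn1 and Oxtr and at most 1 of Krt8 and Krt18.

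Counts were summed per mouse and class (at least 10 cells) and tested with edgeR 4.0.16 (TMM scaling, filterByExpr, quasi-likelihood F test, mouse as a block, Benjamini-Hochberg over all genes tested) in R 4.3.3. The block pairs classes of the same mouse, since each library is 1 animal. Standard errors are the log2 fold change over the root of F. Alternatives were DESeq2 1.42.0, its size factors, no filter, no block, 1 fit of all classes, other gates and cell filters, each title series, and each mouse left out. Shares of UMIs were compared with exact sign-flip permutation tests (scipy 1.17.1). The code of the fits was also run on simulated counts, and the outcome is not given here. Intervals cover counting error only. The members and lists were chosen with earlier results of these data known. Besides the members, the genes named are those of the marker lists listed at 0, the 3 with the highest mean CPM in fibroblasts of each list and the 5 most like Col1a1 and Sparc (mean of at least 20 CPM). Cyr61, Col11a1, Acta2 and Krt14, and the comparison of hormone-sensing with tumor cells and the tests of the Dcn share, were chosen after the values had been seen.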

Additional observations from a re-analysis of the deposited data

Results flagged for a closer look

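Of 29 groups of 7 mice examined, 14 held a mouse far from the other 6 by Dixon's criterion, and 12 of the 14 were on replicate 8. For 1 group of normally distributed values, chance gives about 1 in 20. The 29 groups share the same 7 libraries and some are sums of others, so the 14 are not separate outliers. In tumor cells of replicate 8, Col1a1 was at 309 CPM (next mouse 63.2), Col1a2 at 731 CPM (next 190), Col3a1 at 805 CPM (next 107), Col5a1 at 42.7 CPM (next 7.03), Col5a2 at 85.3 CPM (next 17.0), Dcn at 267 CPM (next 111), Lum at 96 CPM (next 12.3) and Sparc at 869 CPM (next 162). The 10 genes together were at 3240 CPM in its tumor cells (next 603), 3220 CPM in its macrophages (next 664) and 9510 CPM in its barcodes under 200 genes (next 2911), and fibroblasts were 19.8% of its cells (next 4.69%). In fibroblasts, replicate 4 was low for Col3a1, at 8630 CPM (next 13542), and for Col5a1, at 349 CPM (next 511).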

How the results depend on the processing

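All 10 members were called higher in fibroblasts than in tumor cells under all 21 alternatives, a direction that the filter on low counts leaves as the only one for members near 0 in tumor cells. Members called against myoepithelial cells fell from 9 to 4 with DESeq2 and were 6 to 9 otherwise. Those of endothelial against tumor cells went from 1 to 2 with the fibroblast gate without Mgp. Those of tumor against T/NK cells went from 0 to 1 with at least 500 genes per cell, 2 in the CB mice and 3 in the WT mice. Over all genes, 2103 of 3822 (55%) were called in the main design and 1346 of 3374 in the WT mice. With at least 500 genes per cell 4322 genes were tested, and in the CB mice 5414. The shares called there are not given here. Fibroblasts held 73.0% of the 10-gene UMIs with a gate of 1 UMI, and 59.0% to 64.2% with each mouse left out. The higher Dcn share of hormone-sensing cells (percentage points) over fibroblasts, tumor cells and barcodes under 200 genes was 81.6, 70.9 and 69.9 in the CB mice and 55.0, 53.3 and 50.9 in the WT mice, too few mice to reach 0.05, and 56.5 to 71.5 over tumor cells with each mouse left out, where the call was lost each time (exact adjusted p = 0.0625). The Sparc share of fibroblasts less that of tumor cells turned to 4.06 in the WT mice. Without the mouse (replicate) block the members called were 10, 10 and 8 for fibroblasts against tumor, endothelial and myoepithelial cells. They were 1 for endothelial against tumor cells, 0 for tumor against T/NK cells and 1 for hormone-sensing against tumor cells. In the last comparison the main design called 3 members, and no filter, all classes in 1 fit and the WT mice gave 5 each. Over all genes, 1333 of 6655 were called there in the main design and 251 of 5964 in the WT mice. With no filter 27774 genes were tested and with all classes 8730, and the shares called there are not given here. In endothelial against tumor cells, Col1a2 and Col3a1 turned to 1.54 and 1.58 with the gate without Mgp. In tumor against T/NK cells, Sparc turned to 0.92 with at least 500 genes; Col1a2 to -0.50 with a gate of 3 UMIs, -0.12 with no luminal UMI and -0.22 with at least 20 cells; Dcn and Sparc to 0.25 and 0.11 (DESeq2 size factors), 0.26 and 0.47 (DESeq2), 0.14 and 0.0792 (no filter), 0.18 and 0.46 (no block), 0.0244 and 0.0759 (all classes in 1 fit) and 1.05 and 0.84 (WT mice). With each mouse left out, tumor against T/NK cells gave -0.24 to 0.35 for Dcn (turned without replicate 1), -0.51 to 0.38 for Sparc (without 1 or 4) and -0.64 to 0.67 for Col1a2 (without 5 or 8), and endothelial against tumor cells gave -1.71 to 0.18 for Col1a2 and -1.85 to 0.47 for Col3a1 (without 8). The number of genes called changed along with the number tested. For fibroblasts against tumor cells 1592 of 3509 went to 4157 of 26208 (no filter) and 3593 of 8730 (all classes). Against endothelial cells 401 of 1045 went to 262 (DESeq2), 738 of 16609 (no filter) and 994 of 8730 (all classes). Against myoepithelial cells 170 of 650 went to 106 (DESeq2 size factors), 21 (DESeq2) and 296 of 8730 (all classes). For endothelial against tumor cells 541 of 2139 went to 847 of 21443 (no filter) and 1598 of 8730 (all classes). For tumor against T/NK, 2103 of 3822 went to 5377 of 26494 (no filter), 4047 of 8730 (all classes) and 1346 of 3374 (WT mice). For hormone-sensing against tumor cells 1333 of 6655 went to 414 (no block), 251 of 5964 (WT mice) and 762 of 6404 (without replicate 4). The causes were not tested. Leaving out a mouse was not run for the edgeR test against myoepithelial cells, which had 2 mice. The Sparc share there, in 4 mice, was -52.0 to -48.0 percentage points with each left out.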
